A study of Homo sapiens with 4 samples.

Results

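The 10 genes described here encode MYBL2, its relative MYBL1, the forkhead factor FOXM1, and 7 subunits of the DREAM complex (LIN9, LIN37, LIN52, LIN54, E2F4, RBL1 and RBL2). They were chosen by name with earlier results of these data in view, because the counts of MYBL2 fell in the TLN1 knockdown. The fall of MYBL2 is therefore given as a description and supports nothing by itself. The count table held 60721 genes, of which 16137 passed a filter on low counts, and all 10 genes were found in it and passed that filter.

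RNA was sequenced from Hs578T, an established human breast carcinoma line. All cells received GFP by co-transfection, together with a non-targeting siRNA (SCR) or an siRNA against TLN1 (siTLN1) at 1.6 µM, and were collected after 48 h. TLN1 encodes talin-1, which couples integrins to actin. Each group had 2 libraries, called a and b, described by the submitters as biological replicates. Abundance is given as CPM, counts scaled to a common library size after TMM normalization, and differences as log2 fold changes of siTLN1 against SCR.

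DREAM is a repressor that forms in quiescent and early G1 cells. It joins a pocket protein (RBL1 or RBL2) and an E2F with its DP partner to the MuvB core, made of LIN9, LIN37, LIN52, LIN54 and RBBP4. As cells enter the cycle the pocket protein and E2F leave, and MuvB binds MYBL2 and later FOXM1 to activate genes of G2 and mitosis. E2F-site genes of G1 and S phase and genes with a CHR element, which serve in G2 and mitosis, are the classic DREAM targets.

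The sequence features that accompany the results are shown first. Earlier analysis of these data linked the presence of the 7-base word GACAACA in 3′ untranslated regions to lower fold changes, so it was searched in 1 GENCODE 29 transcript per gene, the one with the longest coding sequence. Among the 10 genes only MYBL2 and FOXM1 held it, both in coding sequence and in neither untranslated region. The word is in capitals, with 11 bases on either side. The MYBL2 copies lie in exons 10 and 13 of 14 (GRCh38, chr20:43709994-43710000 and chr20:43715188-43715194, plus strand), and the FOXM1 copy in exon 10 of 10 (chr12:2858673-2858679, minus strand).
MYBL2, exon 10: agtactccatgGACAACActccccacacg
MYBL2, exon 13: gtatcaaagaaGACAACAgcttgctcaac
FOXM1, exon 10: cactgggccctGACAACAtcaactggtcc
Both annotated coding transcripts of MYBL2 and 4 of 5 of FOXM1 contain the word. Of 12860 protein-coding genes tested, 15.9% held at least 1 copy in coding sequence, 2.78% held 2 or more there, and 22.7% held it anywhere in the transcript.

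The promoter of MYBL2 is shown because MYBL2 is the gene of the 10 that moved and is itself known to be controlled through an E2F site. The 100 bases before its RefSeq start (GRCh38.p14, chr20:43667014-43667113, plus strand) contain 1 match to an E2F core, in capitals, whose first base lies 39 bases before the start. The annotation used for counting starts MYBL2 at 43667019, so most of these bases, with the E2F core, lie inside the span of the counted gene.
MYBL2 promoter: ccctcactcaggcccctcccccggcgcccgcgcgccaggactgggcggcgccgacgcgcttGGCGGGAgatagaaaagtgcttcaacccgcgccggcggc
The letters searched on both strands, from 250 bases before to 50 after the start, were GGCGGGA or TTTGGCGC for E2F and TTTGAA or TTCGAA for the CHR. RefSeq promoters were matched for 8 of the 10 genes, all but MYBL1 and FOXM1. An E2F core was found in 4 of the 8 (MYBL2, LIN52, LIN54 and RBL1) and CHR letters in 2 (LIN54 and RBL2), and no matches overlapped. Over all 27305 promoters the shares were 16% for E2F and 16.6% for the CHR. These are matches of letters and not binding sites.

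Total counts ran from 31854322 to 46353297 per library, so the number of libraries limits precision more than depth for all but the least abundant of the 10 genes. TLN1 was at 868 and 874 CPM in SCR against 51.9 and 44.8 CPM in siTLN1, which matches the labels. The labels call the cells epithelial. The epithelial markers EPCAM and KRT19 were at or below 0.144 CPM in every library and CDH1 at 0.409 to 0.851 CPM. The epithelial KRT8 ran from 15.1 to 20.7 CPM, KRT18 from 104 to 131 CPM and the mesenchymal marker VIM from 3811 to 3968 CPM. Markers of leukocytes, endothelium and liver (PTPRC, PECAM1, ALB) summed to at most 5.1 CPM among those tested, and ALB had at most 3 counts in any library. The luminal receptors ESR1 and PGR were at or below 0.137 CPM. Of 5 mesenchymal markers, CDH2 (log2 fold change −0.89, adjusted p 2.45e-05) and SPARC (−0.48, adjusted p 0.0161) were lower in siTLN1. The other 3 did not pass (VIM 0.023, CD44 −0.26 and FN1 0.25 on the log2 scale), with CD44 lower and FN1 higher in both siTLN1 libraries. The 3 epithelial markers tested did not pass either (CDH1 0.83, KRT8 −0.24 and KRT18 0.024). Of these, CDH1 was higher and KRT8 lower in both siTLN1 libraries. The part of these markers in the results below was not tested. In bulk RNA, fewer cells in a phase of the cycle and less RNA per cell cannot be told apart.

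MYBL2 (B-MYB; ENSG00000101057.16, chromosome 20, 43667019 to 43716495, plus strand) is the activator that joins MuvB in S phase. It had 7118 and 7450 raw counts in SCR and 2536 and 3508 in siTLN1, or 224 and 214 CPM against 69.7 and 74.6 CPM. Both siTLN1 libraries lay far below both SCR libraries, and the replicates within each group were close. The means were 219 ± 7.08 CPM (SD, n = 2) and 72.2 ± 3.52 CPM (SD, n = 2), so 33% of the SCR level remained. On the log2 scale this is −1.60 (standard error 0.094; 95% interval −1.80 to −1.40). It ran from −1.65 to −1.55 when each library was left out in turn. None of its exon bases is shared with another annotated gene.

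MYBL1 (A-MYB; chromosome 8, 66562175 to 66614247, minus strand), the closest relative of MYBL2, had 116 and 98.6 CPM in SCR and 105 and 86.3 CPM in siTLN1. These ranges overlap, and the difference between groups was smaller than that between the libraries of a group. Its log2 fold change was −0.17, with a 95% interval from −0.41 to 0.075. FOXM1 (chromosome 12, 2857681 to 2877155, minus strand), which drives mitotic genes together with MuvB, had 242 and 214 CPM in SCR and 219 and 209 CPM in siTLN1. The ranges overlap again, and the log2 fold change of −0.094 had an interval from −0.30 to 0.11. FOXM1 shares 15.9% of its exon bases with ITFG2 on the opposite strand, and the counting used no strand option although the libraries were made with a stranded kit. ITFG2 itself was at 17.3 ± 1.43 CPM (SCR; SD, n = 2) and 17.4 ± 1.45 CPM (siTLN1; SD, n = 2).

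**Figure D1:**
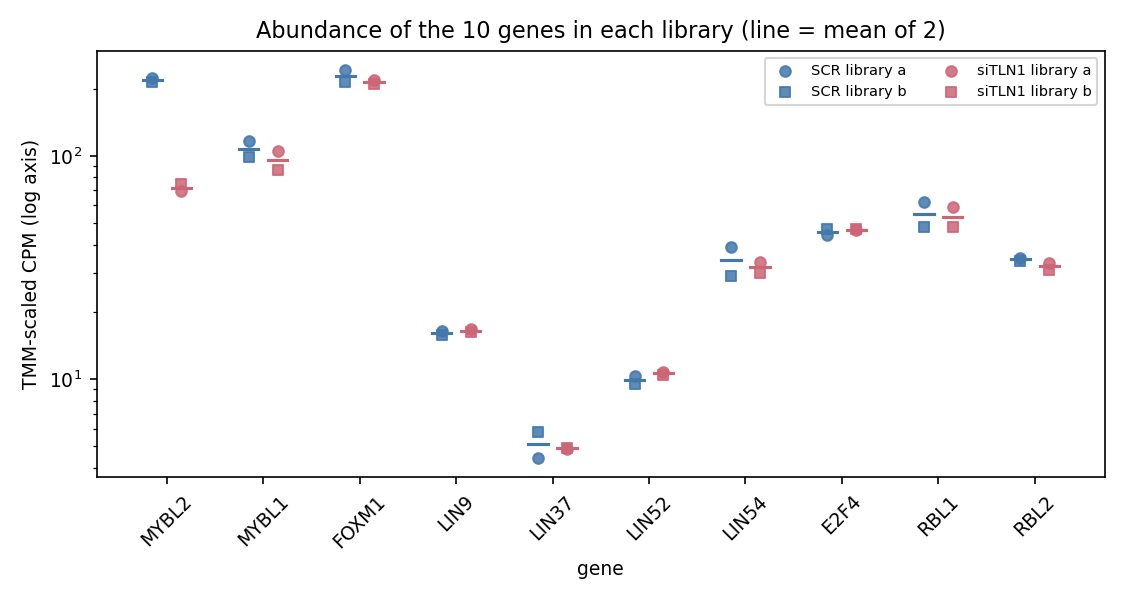
TMM-scaled CPM (log axis) of each of the 10 genes, with 1 point per library and a line at the mean of the 2 libraries of SCR (blue) and siTLN1 (red). The siTLN1 points of MYBL2 sit at 69.7 and 74.6 CPM, below SCR points at 224 and 214 CPM, while the points of 7 genes overlap between groups.

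Of the MuvB core subunits, LIN9, LIN52 and LIN37 were the 3 least abundant of the 10 genes per kilobase. LIN9 (chromosome 1, 226231149 to 226309869, minus strand), a scaffold of the core, had 16.5 and 15.7 CPM in SCR and 16.8 and 16.2 CPM in siTLN1. LIN52 (chromosome 14, 74084796 to 74201235, plus strand), whose phosphorylation by DYRK1A favours binding of the pocket protein, had 10.3 and 9.53 CPM against 10.8 and 10.4 CPM. LIN54 (chromosome 4, 82909973 to 83012926, minus strand), the subunit that contacts CHR DNA, had 38.9 and 29.1 CPM against 33.5 and 29.9 CPM. For LIN9 and LIN54 the groups overlapped, and for LIN52 the siTLN1 libraries were slightly higher without overlap. The log2 fold changes of these subunits were 0.035 for LIN9 (95% interval −0.20 to 0.27), 0.10 for LIN52 (−0.16 to 0.36) and −0.10 for LIN54 (−0.38 to 0.18).

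LIN37 (chromosome 19, 35748361 to 35754519, plus strand), a core subunit needed for repression, was the least abundant, with 141 and 202 raw counts in SCR and 177 and 232 in siTLN1. This corresponds to 4.44 and 5.8 CPM in SCR, which enclose the siTLN1 values of 4.86 and 4.94 CPM. Its log2 fold change was −0.066, with the widest interval below 0 of the other 9 genes (−0.42 to 0.28). Exons of an opposite-strand gene cover 41.8% of its exon bases and those of a gene on its own strand 26.7%. With the counting options recorded by the authors, reads in such overlaps need not have been assigned to LIN37, so its level is uncertain.

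The DREAM-specific subunits also differed little between groups. E2F4 (chromosome 16, 67192155 to 67198918, plus strand), the main repressive E2F of the complex, had 44.3 and 47.1 CPM in SCR and 46.6 and 46.8 CPM in siTLN1. RBL1 (chromosome 20, 36996349 to 37095997, minus strand), a pocket protein whose own gene is E2F-controlled, had 62 and 48.2 CPM in SCR and 59 and 47.8 CPM in siTLN1. RBL2 (chromosome 16, 53433977 to 53491648, plus strand), the pocket protein typical of quiescent cells, had 34.9 and 33.8 CPM in SCR and 33.1 and 30.9 CPM in siTLN1. The groups overlapped for E2F4 and RBL1, and for RBL2 both siTLN1 libraries were lower by a small margin. Their log2 fold changes were 0.03 for E2F4 (95% interval −0.17 to 0.23), −0.046 for RBL1 (−0.33 to 0.24) and −0.10 for RBL2 (−0.31 to 0.11). On the opposite strand, AKTIP and an unnamed gene overlap 18.3% of RBL2's exon bases, and another gene overlaps 3.58% of RBL1's. AKTIP was at 11.7 ± 0.73 CPM (SCR; SD, n = 2) and 12.1 ± 0.0537 CPM (siTLN1; SD, n = 2).

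Library a exceeded library b in both groups for 7 genes (MYBL1, FOXM1, LIN9, LIN52, LIN54, RBL1 and RBL2), library b exceeded library a in both for LIN37 and E2F4, and the order differed between the groups for MYBL2. For RBL1 the 59 to 62 CPM of the a libraries stood above the 47.8 to 48.2 CPM of the b libraries, a wider gap than that between SCR and siTLN1. The column names of the a libraries share a number, as do those of the b libraries, and what the number marks is not stated.

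**Figure D2:**
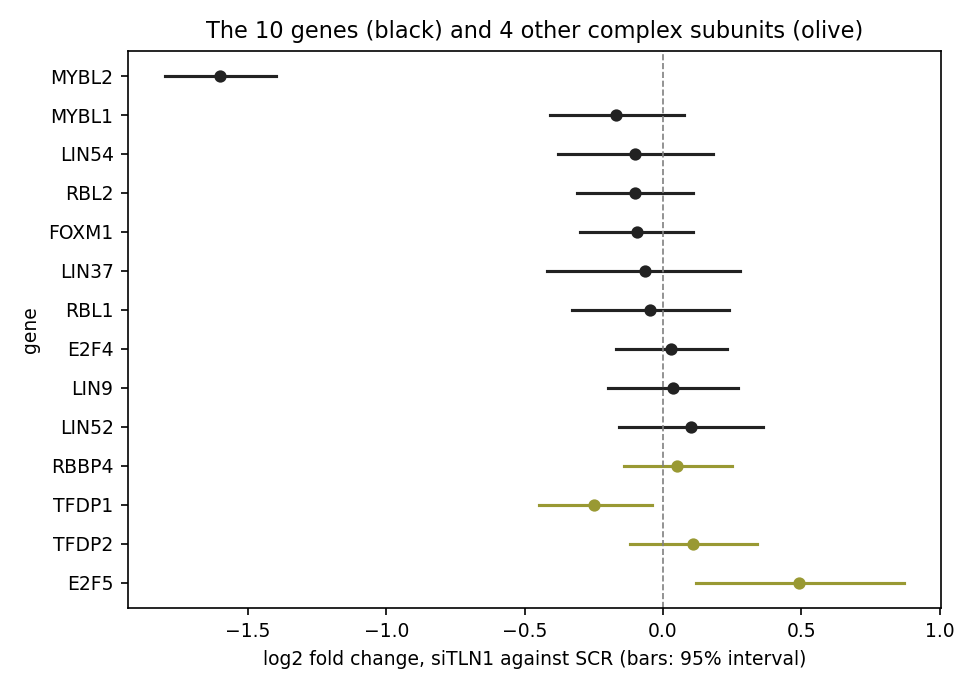
Log2 fold change of siTLN1 against SCR (points) with its 95% interval (bars) for the 10 genes, in black, and the 4 other complex subunits, in olive. MYBL2 lies at −1.60, and the intervals of the other 9 black points reach no lower than −0.42 and no higher than 0.36.

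Of the 10 genes, 1 passed an adjusted p of 0.05 by the quasi-likelihood test of edgeR, and that gene is MYBL2, for which the set was chosen. Over all genes tested 980 of 16137 (6.07%) passed, 609 (3.77%) lower and 371 (2.3%) higher in siTLN1. Without siTLN1 library a the count was 347. The adjusted p of the other 9 genes ran from 0.461 for MYBL1 to 0.912 for E2F4. The 2 libraries of each group were apart for 3 of the 10 genes (MYBL2, LIN52 and RBL2), against 48.4% of all genes tested. Without MYBL2 the median log2 fold change of the set was −0.066, with 3 genes higher and 6 lower in sign, against 0.0033 over all genes. A miss of the threshold does not show equal levels, but the 95% intervals of these 9 genes extend from −0.42 to 0.36 and leave out a fall of the size seen for MYBL2. The signs of 4 near-zero genes rest on single libraries. Without SCR library a the values were 0.12 for LIN54, −0.011 for E2F4 and 0.15 for RBL1. RBL1 was at 0.10 without siTLN1 library b, and LIN37 at 0.14 without SCR library b.

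Per kilobase of exon, MYBL2 was the most abundant of the 10 transcripts in SCR and ranked below FOXM1 in siTLN1. In SCR its level was 77.1 to 80.7 CPM per kilobase over the 2 libraries, against 43.7 to 49.4 for FOXM1. MYBL1 (13.6 to 16), E2F4 (12.3 to 13.1), RBL1 (8.09 to 10.4), LIN54 (4.3 to 5.75), RBL2 (4.65 to 4.8), LIN9 (3.54 to 3.7), LIN52 (2.58 to 2.78) and LIN37 (1.57 to 2.06) followed, in CPM per kilobase. The ranges of LIN54 and RBL2 overlapped, and all other neighbours in this order were apart. In siTLN1 the level of FOXM1 was 42.6 to 44.7 and that of MYBL2 25.1 to 26.9 CPM per kilobase. The remaining order was the same, with overlap between MYBL1 and E2F4 and between LIN54 and RBL2.

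Ratios within a library show the same shift without scaling between libraries. The ratio of MYBL2 to FOXM1, per kilobase, was 1.63 and 1.76 in SCR and 0.561 and 0.632 in siTLN1. That of MYBL2 to MYBL1 was 5.03 and 5.66 in SCR and 1.73 and 2.26 in siTLN1. MYBL2 to LIN9, its partner in MuvB, was at 21.8 in both SCR libraries and at 6.63 and 7.39 in siTLN1. Each of these 3 ratios contains MYBL2, by which the set was chosen. Of the 3 ratios without MYBL2, a pair also had groups apart, by smaller margins. E2F4 to E2F5 was 25.5 and 20.6 in SCR against 15.9 and 16.9 in siTLN1, and FOXM1 to LIN9 was 13.3 and 12.3 against 11.8 and 11.7. The ratio of the pocket proteins, RBL1 to RBL2, was 2.17 and 1.74 in SCR and 2.17 and 1.89 in siTLN1, and the groups overlapped. An exact permutation test on 2 against 2 libraries cannot go below p = 0.333, so no test of a ratio is given.

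**Figure D3:**
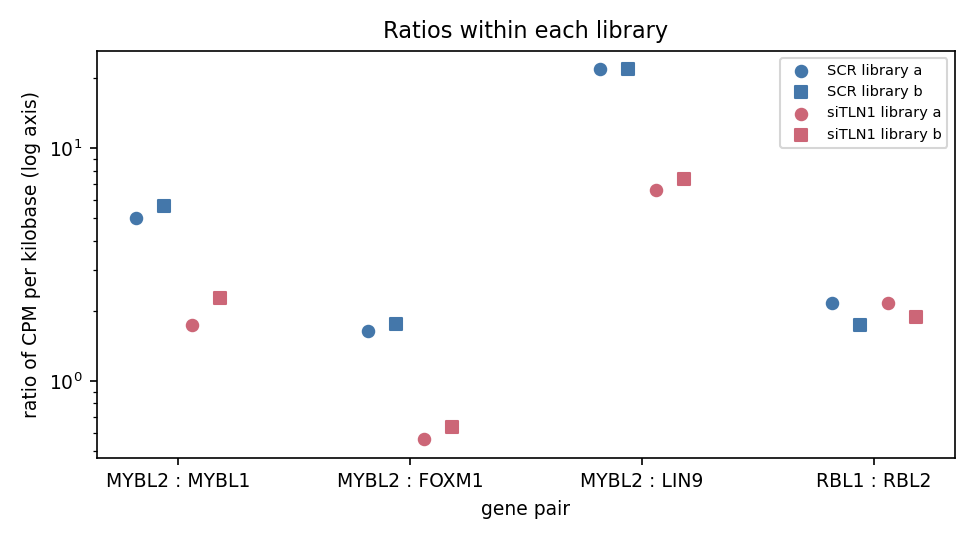
Ratios of CPM per kilobase (log axis) for 4 pairs of genes, with 1 point per library of SCR (blue) and siTLN1 (red). The 3 ratios with MYBL2 are lower in both siTLN1 libraries, for example 0.561 and 0.632 against 1.63 and 1.76 for MYBL2 to FOXM1, and the ratio of RBL1 to RBL2 overlaps.

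The 4 subunits outside the set were RBBP4, the histone-binding part of MuvB, the DP proteins TFDP1 and TFDP2, which pair with E2Fs, and E2F5, the close relative of E2F4. None passed edgeR's quasi-likelihood test after Benjamini-Hochberg adjustment, and 2 (TFDP1 and E2F5) had an unadjusted p under 0.05. TFDP1 had 134 and 123 CPM in SCR and 102 and 115 CPM in siTLN1, a log2 fold change of −0.25 (95% interval −0.45 to −0.04) with an adjusted p of 0.16. E2F5 had 2.89 and 3.82 CPM in SCR and 4.89 and 4.62 CPM in siTLN1, a log2 fold change of 0.49 (0.12 to 0.87) with an adjusted p of 0.119. Without SCR library b, E2F5 was at 0.71 with an adjusted p of 0.0463, so its side of the threshold rests on that library. Of its exon bases, 18.8% are shared with opposite-strand genes. RBBP4 was at 88.9 ± 2.18 CPM (SCR; SD, n = 2) and 92.1 ± 3.3 CPM (siTLN1; SD, n = 2), and opposite-strand SYNC covers 22.8% of its exon bases. TFDP2 was at 65.3 ± 7.4 CPM (SD, n = 2) and 70.6 ± 7.87 CPM (SD, n = 2).

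Among 20 regulators of the complex (including the pocket protein RB1, other E2Fs, DYRK1A, LATS kinases, cyclins and CDKs), 1 (5%) passed. The share over all genes tested was 6.07%. CCNE1, the cyclin that starts S phase with CDK2, fell from 13.2 and 12.8 CPM in SCR to 7.06 and 8.55 CPM in siTLN1. This is −0.73 on the log2 scale (standard error 0.13, adjusted p 0.00304), and 0 genes of the list passed as higher. Without siTLN1 library a the value was −0.60 (adjusted p 0.0679) and no regulator passed. The median over the list was 0.12, with 13 of 20 genes higher in sign. The list's most abundant genes per kilobase were CCND1, the cyclin of early G1, at 473 ± 22.3 CPM (SCR; SD, n = 2) and 554 ± 4.55 CPM (siTLN1; SD, n = 2) (adjusted p 0.188), and CCNA2, the cyclin of S phase and G2, at 134 ± 14.9 CPM (SD, n = 2) and 127 ± 4.46 CPM (SD, n = 2) (adjusted p 0.762).

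Late cell cycle genes, the class that MYBL2, FOXM1 and MuvB activate, were given by a list of 57, all of which were tested. CHR letters were present in 71.4% of its 49 matched promoters and an E2F core in 32.7%. Of the 57 genes, 2 (3.51%) passed, 1 in each direction, against 6.07% of all genes tested. The median log2 fold change was 0.047 with 40 higher and 17 lower in sign. Over all genes tested, 8170 were higher and 7967 lower in sign. With 1 library left out, the late median was −0.036 (SCR library b), 0.13 (SCR library a), 0.026 (siTLN1 library a) or 0.077 (siTLN1 library b). KIF20A, a kinesin of the cytokinetic midzone, fell from 288 and 256 CPM to 203 and 214 CPM (log2 fold change −0.38, standard error 0.10, adjusted p 0.0247). LMNB1, lamin B1, rose from 140 and 135 CPM to 180 and 174 CPM (0.36, standard error 0.091, adjusted p 0.0256). The libraries of the groups did not overlap for either gene.

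Both late calls depended on single libraries. KIF20A missed the threshold without SCR library a (adjusted p 0.17), siTLN1 library a (0.223) or siTLN1 library b (0.0532). LMNB1 did so without SCR library b (0.124), siTLN1 library a (0.219) or siTLN1 library b (0.065). On the opposite strand, BRD8 and CDC23 overlap 5.35% of KIF20A's exon bases, and its coding sequence holds 1 copy of GACAACA. The list's most abundant transcripts per kilobase moved little. TPX2, which organises the spindle, was at 574 ± 32.3 CPM (SCR; SD, n = 2) and 549 ± 12.1 CPM (siTLN1; SD, n = 2), and ANLN (anillin) at 852 ± 108 and 844 ± 51.8 CPM (SD, n = 2 each). Summed over the list, the level was 10297 and 8892 CPM in SCR and 10333 and 9571 CPM in siTLN1, and the groups overlapped. The lowest 95% bound of any gene in the list was −0.59.

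Early cell cycle genes, the E2F-site class, were given by a list of 42, all tested. An E2F core was found in 78.8% of its 33 matched promoters and CHR letters in 3.03%. Of the 42 genes 3 (7.14%) passed, against 6.07% of all genes tested. CCNE1 (also in the regulator list) and TK1 were lower and GINS1 higher in siTLN1. The lists overlap: CCNE2, E2F1, E2F2 and E2F8 are also in both the regulator and early lists. CCNA2 is in both the regulator and late lists. The median log2 fold change was 0.023. With 1 library left out, it was −0.023 (SCR library b), −0.021 (siTLN1 library a), 0.048 (SCR library a) or 0.054 (siTLN1 library b). TK1, the thymidine kinase of S phase, fell from 123 and 135 CPM to 90.1 and 97.3 CPM (log2 fold change −0.47, standard error 0.10, adjusted p 0.00721). GINS1, a subunit of the replicative helicase, rose from 49.1 and 40.2 CPM to 65 and 59.8 CPM (0.48, standard error 0.11, adjusted p 0.0141). Without siTLN1 library a none of the 3 passed, with adjusted p of 0.125 for TK1 and 0.156 for GINS1, and GINS1 also missed the threshold without SCR library b (0.0968).

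The other early genes gave no common direction. The most abundant per kilobase were PCNA, the replication clamp, at 167 ± 1.61 CPM (SCR; SD, n = 2) and 179 ± 4.14 CPM (siTLN1; SD, n = 2), and MCM7, a subunit of the helicase ring, at 350 ± 2.99 CPM (SD, n = 2) and 408 ± 4.97 CPM (SD, n = 2). Neither passed (adjusted p 0.609 and 0.187). The summed level of the list was 4216 and 4009 CPM in SCR and 4178 and 3991 CPM in siTLN1.

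**Figure D4:**
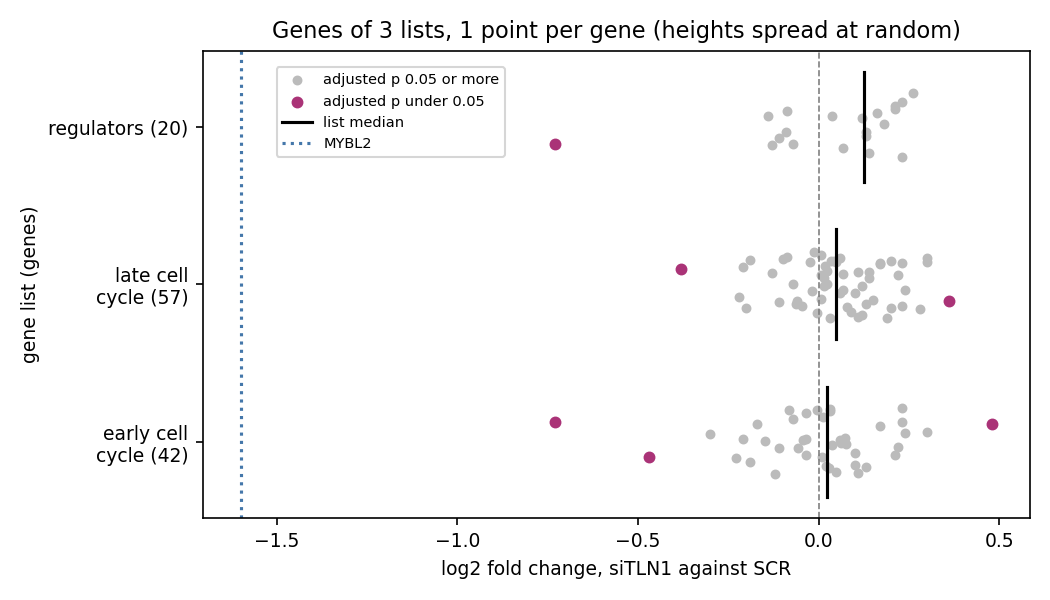
Log2 fold change of siTLN1 against SCR for each gene of the early (42), late (57) and regulator (20) lists, with genes past an adjusted p of 0.05 in purple, list medians as black lines and MYBL2 as a dotted line. The medians lie at 0.023, 0.047 and 0.12, and no gene of these lists lies as low as MYBL2 (−1.60), the lowest being CCNE1 at −0.73.

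The genes whose values across the 4 libraries were most like those of MYBL2 came from outside the cell cycle lists. Likeness was the Euclidean distance between log2 CPM values, each centred on its gene's mean, over 10466 genes at 5 CPM or more. The 5 nearest were KCNK2 (distance 0.147), a potassium channel, DHRS7B (0.18), a reductase, CCNYL1 (0.216), of the cyclin Y family, MYPN (0.243), a sarcomere protein, and EPAS1 (0.247), a hypoxia-inducible factor. The CPM of KCNK2 was 43.6 and 42.8 in SCR and 14.3 and 13.4 in siTLN1, and that of DHRS7B was 13.3 and 14.8 against 4.62 and 5.09. Between 31.7% (MYPN) and 36.4% (CCNYL1) of the SCR level remained for the 5 genes, against 33% for MYBL2. These genes were picked for that likeness, so their falls are a description.

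All 5 hold GACAACA in the transcript examined, as MYBL2 does. The genes were picked for falling as MYBL2 does, and the word was taken up because of its link to lower fold changes in these same data, so this is a description and not independent evidence. Their copies are shown for comparison with those of MYBL2. They lie in the 3′ untranslated region of KCNK2 (chr1:215235548-215235554), DHRS7B (chr17:21191321-21191327), CCNYL1 (chr2:207753834-207753840) and EPAS1 (chr2:46386614-46386620), and in the coding sequence of MYPN (chr10:68174201-68174207) and again of CCNYL1 (chr2:207751060-207751066), all on the plus strand of GRCh38. Not all transcripts carry the word: it is in 1 of 5 annotated coding transcripts of KCNK2, 1 of 2 of EPAS1, 3 of 5 of DHRS7B, 4 of 5 of CCNYL1 and 4 of 5 of MYPN.
KCNK2: catttatggatGACAACAatttttttttt
DHRS7B: caatcaaaaacGACAACAagcttcttccc
CCNYL1, 3′ region: agagactcatgGACAACAaggattatact
EPAS1: gaattcctactGACAACAttataactgta
MYPN: cccccagcggtGACAACAtccagtaagca
CCNYL1, coding: ccttagcagatGACAACAacctgaatttt
FOXM1 also holds a coding copy (above) at a log2 fold change of −0.094, as do TPX2 and ANLN at −0.063 and −0.013. Other genes with coding copies lay on both sides of 0. Among the genes of the lists they ran from CDH2 (−0.89) to CDH1 (0.83, at 0.409 to 0.851 CPM). CDH2 also has a copy in its 3′ untranslated region. Lower in sign were, for example, SPARC (−0.48), TK1 (−0.47), KIF20A (−0.38), CD44 (−0.26), TFDP1 (−0.25) and MCM6 (−0.036). Higher in sign were, for example, CDC25C (0.28), FN1 (0.25), DYRK1A (0.18), ASPM (0.12), TFDP2 (0.11), CDC20 (0.022) and CCNB1 (0.015). The target TLN1 holds a coding copy too. These are examples, and the fold changes of genes with and without coding copies were not compared. The word was present in 16 of 57 late and 8 of 42 early genes, against 22.7% of the 12860 protein-coding genes tested. In the 3′ untranslated region, 7.34% of those 12860 genes held it. Its part in the level of MYBL2 was not tested.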

How the data were processed

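Raw counts per gene were deposited by the authors, made with featureCounts 2.0.0 on read pairs, GENCODE 33 and no strand or multi-mapping option, per the file headers. STAR 2.7.9a and edgeR 3.34.1 are named in the submitters' processing notes. Gene length in exon bases, an other unit, is a further column of the deposited table. The authors also deposited log2 CPM values. Count columns were mapped to groups by name, since their numbers match no label (0 columns unmapped). No row of the count table lacked a gene name (0).

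Of 60721 genes 16137 passed edgeR's filterByExpr (minimum count 10, total 15). Groups were compared with edgeR 4.0.16 in R 4.3.3 (TMM, estimateDisp, robust glmQLFit with legacy off, glmQLFTest, Benjamini-Hochberg over all genes tested, threshold 0.05). Intervals are from the same fit, and SDs are over 2 libraries. The biological coefficient of variation was 0.0805, and replicates differed by more than counting noise (chi-square per degree of freedom 13.3 and 18.3). Nothing beyond the submitters' word shows that replicates came from separate cultures, so p values measure the spread between these libraries.

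The members and lists were chosen with earlier results of these data known. Lists came from general knowledge. From each, up to 4 genes past the threshold and the 2 most abundant per kilobase are named, with TLN1 and the 5 genes nearest MYBL2. ITFG2 and AKTIP were added after values were seen. Alternatives were RLE scaling, total counts, no filter, a mean count of 10, DESeq2 1.42.0, limma 3.58.1 on the deposited log2 CPM with and without a replicate block, and leaving out each library. The fit was also run on simulated counts. These were drawn with the same biological coefficient of variation for every gene and no difference shared between libraries. That run therefore cannot show how the fit behaves where libraries share differences. Promoters are from RefSeq (GRCh38.p14) and transcripts from GENCODE 29, which differs from the release used for counting.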

Additional observations from a re-analysis of the deposited data

How the results depend on the processing

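MYBL2 kept its direction and an adjusted p under 0.05 under all 11 alternatives, with log2 fold changes from −1.60 to −1.59 with 4 libraries. No member other than MYBL2 passed without the replicate block. The count of all genes was 980, and 979 with RLE scaling, 1253 with total counts, 663 without a filter, 998 at a mean count of 10, 847 with DESeq2 and 966 with limma-trend. These are out of 16137 genes, except 32708 without a filter and 15965 at a mean count of 10. DESeq2 gave no adjusted p for 3755 of its 16137 genes. Leaving out a library gave 347 (without siTLN1 library a) to 1116 genes, 1 to 1 members, 0 to 1 other subunits, 0 to 1 regulators, 0 to 3 late genes and 0 to 3 early genes, with the lone library of a group assumed to vary like the other group. Without a filter 1 late gene passed, since KIF20A was at −0.37 (adjusted p 0.0577); the cause was not tested. Leave-one-out ranges of the genes that changed sign were −0.24 to 0.14 for LIN37, −0.30 to 0.12 for LIN54, −0.011 to 0.074 for E2F4, −0.22 to 0.15 for RBL1, −0.18 to 0.048 for CCNA2, −0.14 to 0.12 for ANLN and −0.0058 to 0.23 for TFDP2. No named gene changed sign with 4 libraries.

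Whether equal replicate numbers mark pairs was examined. Differences between replicates 1 and 2 correlated between the groups at 0.19 across genes (0.535 at 5 CPM or more), but 2 pairs and no label of a shared preparation leave them as numbers only. With the replicate block, limma-trend gave 3645 of 16137 genes, 1709 higher and 1936 lower in siTLN1, with 970 of them among the 980. Beside that share it gave 2 of 10 members, 2 of 4 other subunits and 7 of 20 regulators (6 higher). It also gave 17 of 57 late genes (13 higher) and 13 of 42 early genes (7 higher). The added member was MYBL1, at −0.17 with an adjusted p of 0.0408, in a range of 0.0408 to 0.954 over the alternatives. The added subunits were TFDP1 (0.00229) and E2F5 (0.00895), given as adjusted p.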

Other observations

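Genes near MYBL2 on chromosome 20 were examined after the data were seen. Of 8 other tested genes within 500 kb, 1 passed the edgeR threshold, against 6.07% of all genes tested. JPH2 (44111695 to 44187578), which encodes a junctophilin, went from 57.2 to 40.5 CPM, or −0.50 on the log2 scale (adjusted p 0.00437). The closest tested neighbours on either side, IFT52 (43590937 to 43647299), a gene of ciliary transport, and TOX2 (43914852 to 44069616), an HMG-box factor, were at −0.025 and −0.24 (adjusted p 0.928 and 0.283). The other member of the MYB family, MYB, was scarce, at 4.55 ± 0.867 CPM (SCR; SD, n = 2) and 4.54 ± 0.0839 CPM (siTLN1; SD, n = 2), which is 0.0026 on the log2 scale (95% interval −0.36 to 0.36).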
